A study of Mus musculus with 8 samples.

Results

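The 68 neurotransmitter receptor genes described here encode the receptors for glutamate, GABA, glycine, acetylcholine, serotonin, dopamine and noradrenaline. They were chosen by gene symbol alone, as coding genes whose symbols start with the prefixes of these receptor families. RefSeq lists 100 such genes in the mouse, of which 69 lie on the chromosomes of the table (1 to 10, X, Y and M). The other 31 lie on chromosomes not analysed here. Each gene was read from the 1 transcript interval, start to end with introns, that overlapped it best by at least 0.5 of the union of both. This gave 68 of the 20287 genes and 13214 coding genes with an interval. The best interval of Htr1b overlapped it by only 0.209 and left it out, at a density of 3.37 counts per kb per 1000000 counts over 1161 bp. The receptor genes just inside were Gabra5 at an overlap of 0.559 and Glra4 at 0.860. One gene fits the symbols but not the name: Grid2ip encodes delphilin, a scaffold protein that binds a glutamate receptor, and was counted with the ionotropic glutamate genes.

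The libraries are H3K27me3 ChIP-seq of mouse embryonic stem cells, the E14tg2a line on a 129SV background. All cells carried a stable cRAF-ErT2 cassette, a RAF kinase that 4-hydroxytamoxifen (4OHT) switches on to drive ERK signalling. They were kept in serum and LIF, first with the GSK3 inhibitor Chir99021 (2 µM) and for the last 24 h with the FGF receptor inhibitor PD173074 (250 nM). Cells had 2 h of 250 nM 4OHT (2 h) or none (0 h), in clones A and B, so each time holds 2 libraries (n = 2) and every clone and time holds 1. The untreated cells carry the cassette too, and both clones come from 1 line, so a p-value here covers only the variation among these samples, part of which may be technical.

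Trimethylation of lysine 27 on histone H3 is placed by Polycomb repressive complex 2. In stem cells it lies mainly over genes of later lineages that are not transcribed, often around start sites rich in CG dinucleotides. Neurotransmitter receptors are of 2 kinds: ligand-gated ion channels, assembled from several subunits and fast in action, and G protein-coupled receptors, single proteins that signal through second messengers. Both kinds act mainly in neurons and in the tissues that neurons reach.

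The promoters of 6 receptor genes are given here because they mark the range of the results below. Each holds 300 bases, 250 before and 50 after the annotated start, from RefSeq on GRCm38.p6, 5′ to 3′ on the gene's strand, with every CG dinucleotide in capitals. Adra2b and Drd5 carried some of the densest H3K27me3. In Htr1d and Grm8 the mark was dense at the 5′ end and much thinner over the rest. Chrna7 has a CG-rich promoter and a sparse mark over its whole interval, and Glra4 had the sparsest mark of all 68.
Adra2b (chr2:127362929-127363228, + strand): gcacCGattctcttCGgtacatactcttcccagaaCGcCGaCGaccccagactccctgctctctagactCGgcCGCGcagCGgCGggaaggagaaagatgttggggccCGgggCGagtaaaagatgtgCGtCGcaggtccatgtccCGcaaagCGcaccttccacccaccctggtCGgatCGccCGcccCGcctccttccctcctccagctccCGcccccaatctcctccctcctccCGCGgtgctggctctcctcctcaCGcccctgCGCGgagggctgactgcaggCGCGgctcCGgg
Drd5 (chr5:38319259-38319558, + strand): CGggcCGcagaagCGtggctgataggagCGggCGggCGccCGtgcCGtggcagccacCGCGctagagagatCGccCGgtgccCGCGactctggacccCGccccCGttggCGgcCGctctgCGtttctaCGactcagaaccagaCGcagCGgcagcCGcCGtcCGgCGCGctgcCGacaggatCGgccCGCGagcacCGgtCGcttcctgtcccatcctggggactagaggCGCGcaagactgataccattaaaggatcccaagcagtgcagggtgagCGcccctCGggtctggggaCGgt
Htr1d (chr4:136423274-136423573, + strand): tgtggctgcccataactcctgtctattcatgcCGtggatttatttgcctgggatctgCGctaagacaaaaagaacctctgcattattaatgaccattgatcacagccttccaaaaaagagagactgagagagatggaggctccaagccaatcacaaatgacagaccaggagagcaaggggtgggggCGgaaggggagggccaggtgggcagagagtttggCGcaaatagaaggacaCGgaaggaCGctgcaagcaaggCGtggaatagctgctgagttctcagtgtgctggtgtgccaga
Grm8 (chr6:28135097-28135396, - strand): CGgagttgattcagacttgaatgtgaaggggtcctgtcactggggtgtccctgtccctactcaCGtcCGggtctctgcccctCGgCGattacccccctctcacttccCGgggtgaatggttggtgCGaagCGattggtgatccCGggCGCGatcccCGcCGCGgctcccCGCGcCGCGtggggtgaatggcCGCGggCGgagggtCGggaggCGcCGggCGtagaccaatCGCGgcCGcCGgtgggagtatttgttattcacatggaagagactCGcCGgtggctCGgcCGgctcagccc
Chrna7 (chr7:63212477-63212776, - strand): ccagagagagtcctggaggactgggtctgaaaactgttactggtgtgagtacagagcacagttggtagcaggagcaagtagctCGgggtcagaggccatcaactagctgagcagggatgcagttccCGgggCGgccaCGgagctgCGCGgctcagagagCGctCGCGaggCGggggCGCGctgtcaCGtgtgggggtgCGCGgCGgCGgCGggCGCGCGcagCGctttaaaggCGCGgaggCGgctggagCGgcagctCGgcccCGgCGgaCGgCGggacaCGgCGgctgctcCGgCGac
Glra4 (chrX:136779672-136779971, - strand): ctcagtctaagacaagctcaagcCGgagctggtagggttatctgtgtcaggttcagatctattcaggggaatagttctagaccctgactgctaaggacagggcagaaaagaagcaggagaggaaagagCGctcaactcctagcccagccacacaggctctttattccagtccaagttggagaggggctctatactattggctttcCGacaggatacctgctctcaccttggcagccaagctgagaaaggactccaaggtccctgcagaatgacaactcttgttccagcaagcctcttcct

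The Drd5 promoter holds 38 CG dinucleotides, Chrna7 35, Grm8 33 and Adra2b 29, while Htr1d holds 7 and Glra4 3. The median was 14 over the receptor promoters as over those of coding genes, of which 94.7% hold at least 1.

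Receptor genes had a higher median density of H3K27me3 than coding genes at large, and spread widely around it. The densest were short genes for G protein-coupled receptors of adrenaline and dopamine, and the long genes for ion channel subunits lay near the median gene. Density is the read count of the interval per kb per 1000000 counts of the library's column total. The median receptor gene had 0.595 and 0.580 in clones A and B at 2 h, against 0.563 and 0.572 in clones A and B at 0 h. Over the 4 libraries that median was 0.578 ± 0.0135 (SD, n = 4), against 0.284 ± 0.00364 for all coding genes, a set that includes the receptor genes. Densities were not set against input chromatin, so a low value may be background.

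Marked here means a density of at least 4 times that of the median gene. The median gene was taken over all 20287 genes with an interval, coding or not. It stood at 0.358, which puts the limit at 1.43. By this limit 13 of 68 receptor genes (19.1%) were marked, against 719 of 13214 coding genes (5.44%). At 2 times the median gene the count was 26 receptor genes, against 16.5% of coding genes, and at 8 times it was 4, against 1.87%. Above the median gene lay 50. All 68 passed the filter on low counts, and their counts ran from 84 to 40810 per library.

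**Figure D1:**
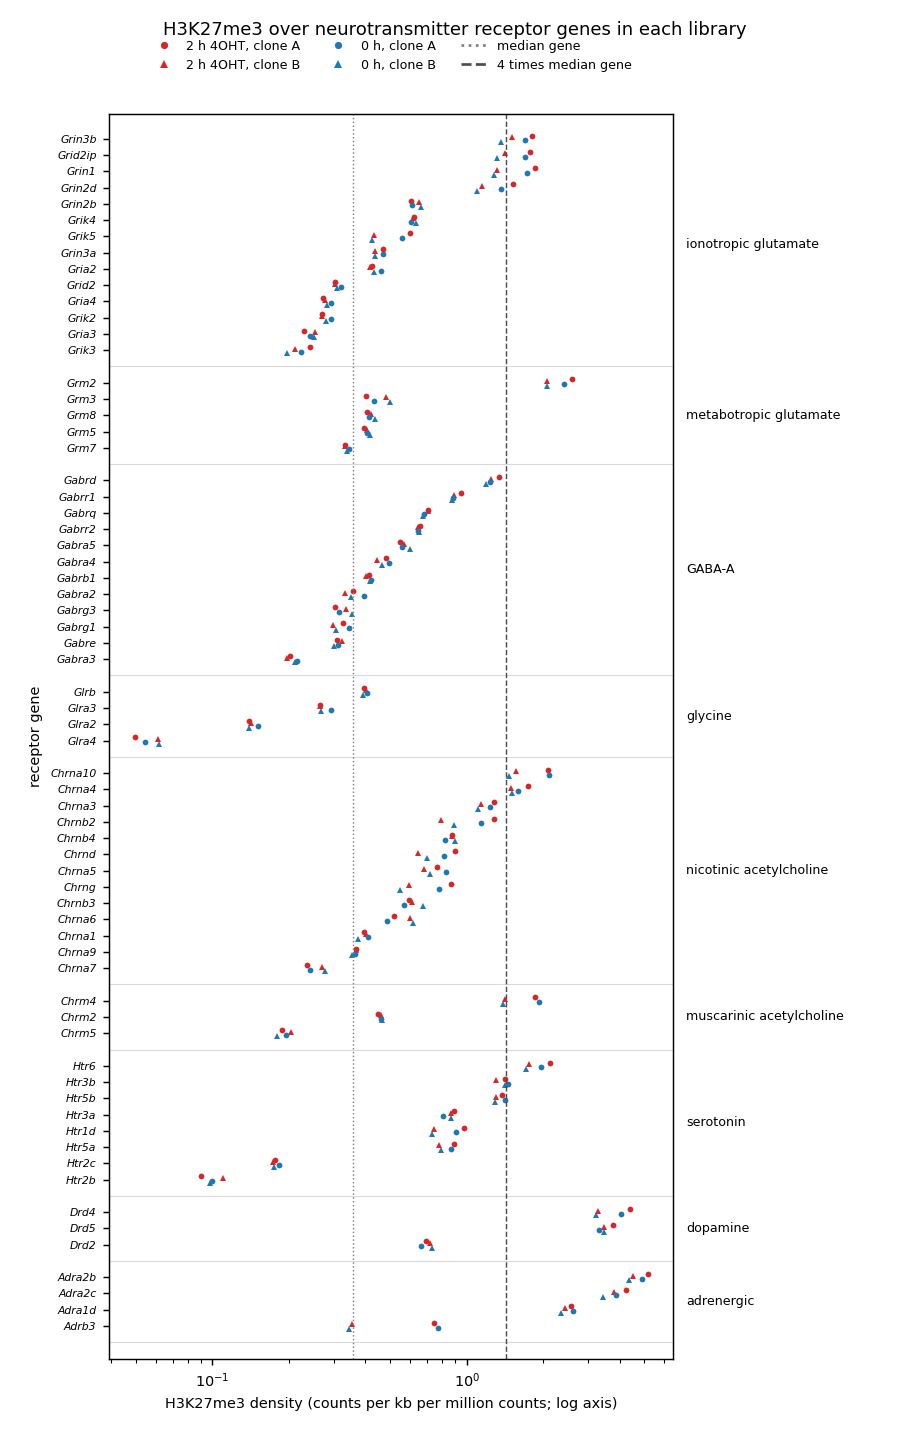
H3K27me3 density of 66 receptor genes in the 4 libraries (x axis, counts per kb per 1000000 counts, log scale), grouped by receptor class and sorted within each class; red is 2 h and blue is 0 h, circles are clone A and triangles clone B. Adrenergic and dopamine receptor genes reach furthest right, up to 5.16 for Adra2b in clone A at 2 h, and Glra4 lies furthest left, down to 0.0495 in the same library.

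The genes for monoamine receptors of the G protein-coupled kind led the list. Adra2b (chr2:127363286-127367221), which encodes an inhibitory α2 adrenergic receptor, had 5.16 and 4.501 counts per kb per 1000000 counts in clones A and B at 2 h, against 4.90 and 4.34 at 0 h. Its near relative Adra2c (chr5:35278566-35281763) had 4.26 and 3.80 at 2 h, against 3.86 and 3.46 at 0 h. Both genes lay above 10 times the median gene in the mean of 4 libraries, at 13.2 and 10.7 times, and the libraries of both times overlapped. Adra1d (chr2:131545357-131562285), for an α1 receptor that acts through calcium release, had 2.59 and 2.43 at 2 h, against 2.61 and 2.34 at 0 h, or 6.97 times. Adrb3, for the β3 receptor of fat tissue, was the exception among the 4 adrenergic genes at 1.55 times, with the widest difference between the clones of any receptor gene.

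Among the 3 dopamine receptor genes, 2 were marked. Drd4 (chr7:141291974-141296238), for an inhibitory receptor of the D2 type, had densities of 4.397 and 3.30 in clones A and B at 2 h, against 4.04 and 3.23 at 0 h. Drd5 (chr5:38319509-38322523), for a stimulatory receptor of the D1 type, had 3.77 and 3.47 at 2 h, against 3.32 and 3.47 at 0 h. They stood at 10.5 and 9.81 times the median gene, and in Drd4 both libraries of clone A lay above both of clone B. Drd2, for the main D2 receptor and the longest of the 3 genes at 67750 bp, was not marked, at 1.96 times.

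Serotonin receptor genes spread over a wide range, with 1 of 8 marked. Htr6 (chr4:139059705-139075521), for a stimulatory receptor, had densities of 2.14 and 1.77 in clones A and B at 2 h, against 1.955 and 1.705 at 0 h, or 5.29 times the median gene. Htr3b, which encodes a subunit of the serotonin-gated ion channel, and Htr5b came just below the limit at 3.91 and 3.77 times. Htr2b, for a receptor that acts through calcium release, was at the other end, with 0.0905 and 0.110 at 2 h, against 0.0996 and 0.0977 at 0 h, or 0.278 times. The whole of Htr2b lies on the opposite strand within Psmd1, a proteasome subunit gene used by all cells, whose interval had 0.0856. The sources used here do not say whether strand entered the counts, so the 2 genes may share reads.

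Of the muscarinic acetylcholine receptor genes, 1 of 3 was marked. Chrm4, for an inhibitory receptor, reached 4.61 times the median gene, with densities of 1.86 and 1.42 at 2 h in clones A and B, against 1.93 and 1.39 at 0 h. Chrm2, for the receptor that slows the heart, stood at 1.28 times and Chrm5 at 0.534 times. Of Chrm5, 75.8% lies opposite to Aven, at a density of 0.154 against 0.191 for Chrm5 itself. Among the metabotropic glutamate receptor genes, Grm2, for an inhibitory receptor of nerve endings, was the only one of 6 marked, with 2.60 and 2.07 at 2 h, against 2.41 and 2.07 at 0 h. The other 5 were long, at 240117 bp for Grm3 or more, and lay between 0.944 times for Grm7 and 1.27 times for Grm3.

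Of the 46 genes counted as ion channel genes, Grid2ip included, 5 were marked (10.9%), as were 8 of 22 G protein-coupled receptor genes (36.4%). Among all coding genes 5.44% were marked. The ion channel genes were also longer, with a median of 40981.5 bp, against 17818.5 bp for the G protein-coupled ones. The share of length in this difference was not tested. The marked NMDA receptor genes were Grin3b, for a glycine-binding subunit, at 4.45 times the median gene, and Grin1. Grin1 (chr2:25291177-25319187), for the subunit that every NMDA receptor needs, sat just inside the limit at 4.31 times. It had densities of 1.85 and 1.31 in clones A and B at 2 h, against 1.72 and 1.28 at 0 h, so only clone A lay above the limit. Grid2ip, the scaffold gene, stood at 4.34 times. The other ionotropic glutamate genes ran down to 0.610 times for the kainate receptor gene Grik3, and the AMPA receptor genes Gria2, Gria3 and Gria4 lay between 0.681 and 1.21 times.

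Nicotinic acetylcholine receptor genes had 2 of 13 marked. Chrna10, for a subunit of the receptor of cochlear hair cells, reached 5.06 times the median gene, with densities of 2.09 and 1.57 at 2 h in clones A and B, against 2.12 and 1.46 at 0 h. Chrna4, for a main subunit of the brain receptor, reached 4.43 times. The lowest was Chrna7, for a subunit that forms channels by itself, at 0.716 times. The muscle receptor genes Chrnd, Chrng and Chrna1 stood at 2.14, 1.95 and 1.11 times.

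No gene for a GABA-A or glycine receptor was marked. The 13 GABA-A genes, for the main inhibitory receptor of the brain, had a class median of 0.413 ± 0.00661 (SD, n = 4). They ran from 3.51 times the median gene for Gabrd, whose δ subunit works outside synapses, to 0.576 times for Gabra3. The 4 glycine receptor genes had the lowest class median, 0.208 ± 0.00923, against 3.17 ± 0.219 for the 4 adrenergic genes and 3.41 ± 0.248 for the 3 dopamine genes. Glra4 (chrX:136757674-136779721) had 0.0495 and 0.0608 in clones A and B at 2 h, against 0.0541 and 0.0614 at 0 h, or 0.158 times. Glra2, at 0.4003 times, was the next of the class, and Glrb, for the β subunit that anchors the receptor, stood highest at 1.12 times.

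Sex chromosome linkage ran beside these values. The 7 X-linked receptor genes had a median of 0.206 ± 0.00870, against 0.618 ± 0.00919 for the 61 autosomal ones. X-linked coding genes had a median of 0.155 ± 0.00284, against 0.30 ± 0.00356 for autosomal coding genes. None of the 7 was marked, against 1.62% of X-linked coding genes, and Glra4, Glra2, Htr2c and Gabra3 were among the 6 sparsest receptor genes. The X-linked receptor genes were also longer, with a median of 198851 bp, against 34131 bp for the autosomal ones. Densities were not adjusted for the number of copies of the X chromosome. The shares of the X chromosome and of length in these differences were not tested.

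Interval length ran with density as well. Receptor genes are long, with a median of 36142.5 bp, against 18403 bp for all coding genes. Under 6 kb, the 6 receptor genes had a median density of 3.58 ± 0.307, with 5 marked, against 0.354 ± 0.00381 and 11.7% marked among 3189 coding genes. From 6 to 20 kb the medians were 0.953 for 18 receptor genes and 0.258 for coding genes, and from 20 to 60 kb they were 0.845 for 14 receptor genes and 0.224 for coding genes. The gap was narrower from 60 to 200 kb, at 0.431 for 13 receptor genes and 0.261 for coding genes. At 200 kb or more, 17 receptor genes had 0.324 ± 0.0150 and coding genes had 0.355 ± 0.00544, so here the median of the receptor genes lay below that of coding genes. Across the 68 genes, which share their libraries and are not independent replicates, Spearman's rho of density with length was -0.685, against -0.101 across coding genes. A whole-span density averages a short marked stretch over a long gene, so a low value of a long gene does not exclude one.

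**Figure D2:**
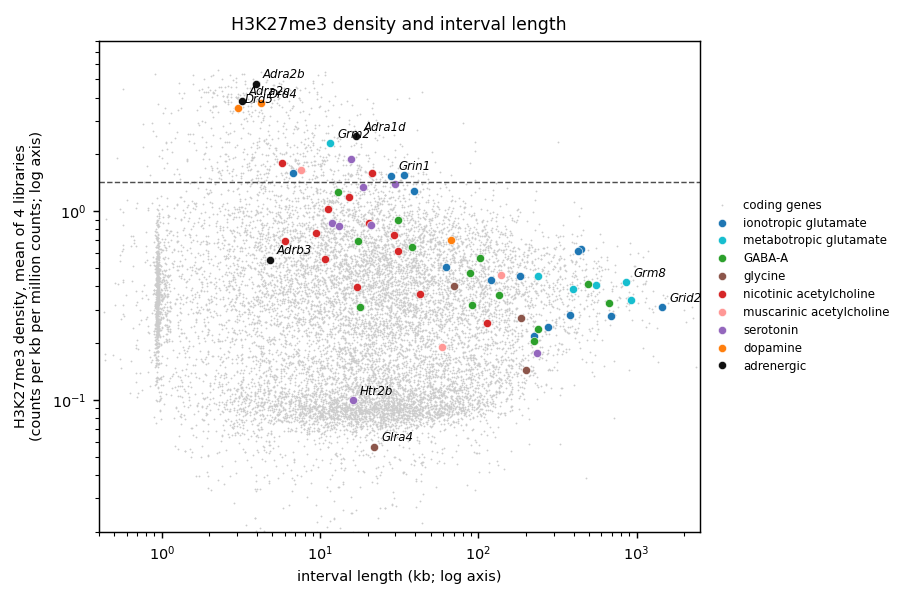
Mean H3K27me3 density over 4 libraries (y axis, counts per kb per 1000000 counts, log scale) against interval length (x axis, kb, log scale) for the receptor genes, coloured by class, and for coding genes within the plotted range in grey; the dashed line is 4 times the median gene. Of the 6 receptor genes under 6 kb, 5 lie above the line and Adrb3 lies below it, while no receptor gene of 60 kb or more reaches it.

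For 14 receptor genes the table holds nested or short intervals that set apart a 5′ part, 300 to 10000 bp from the start. Its count is mostly the difference of the outer and the inner interval, so a read across the boundary falls to the rest. The 5′ part was denser than the rest in 10 of the 14 (71.4%), against 58.2% of 2074 coding genes with such a part. The median ratio was 2.19, against 1.14 over those coding genes. The 5′ part reached 4 times the median gene in 6 of 14 receptor genes (42.9%), against 18.5% of those coding genes. These parts were shorter in the receptor genes, with a median of 665.5 bp, against 1188 bp in the coding genes. The share of part length in these differences was not tested.

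In 3 of the 14 genes (21.4%) the 5′ part passed the limit and the whole span did not, against 13.2% of the coding genes with such a part. The first 787 bp of Htr1d, for an inhibitory serotonin receptor, had 4.02 and 3.06 in clones A and B at 2 h, against 3.86 and 3.24 at 0 h, a mean of 3.55 ± 0.469 (SD, n = 4). The rest of Htr1d had 0.735 ± 0.110. This dense stretch begins at the end of the CG-poor promoter printed above. Grm8, for an inhibitory glutamate receptor of nerve endings, is 860716 bp long and stood at only 1.17 times the median gene as a whole. Its first 1467 bp had 3.23 and 2.69 at 2 h, against 2.78 and 2.94 at 0 h, 7.02 times the 0.415 ± 0.0137 of the rest. The printed Grm8 window, with 33 CG dinucleotides, lies wholly within this dense stretch. Gabra5, for a GABA-A subunit of the hippocampus, had 1.80 ± 0.325 over its first 454 bp and 0.561 ± 0.0246 over the rest. The 5′ part of Gabra5 held only 49 to 94 counts a library.

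The other genes with a 5′ part differed among themselves. Grin3b had 3.35 ± 0.145 over its first 326 bp, on 80 to 98 counts a library, and 1.502 ± 0.2096 over the rest. Chrna4 had 2.33 ± 0.152 over its first 4403 bp and 1.39 ± 0.123 beyond. In Drd4 the order was turned round, with 2.25 ± 0.597 over the first 350 bp and 3.88 ± 0.568 beyond. Those 350 bp held 49 to 93 counts a library. Grik5, Grik3, Gabra3 and Chrna9 had denser 5′ parts under the limit, between 0.563 and 1.18. Gabrr2, Glra3 and Glra2 had 5′ parts less dense than the rest, and that of Glra2 held only 0 to 4 counts per library.

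**Figure D3:**
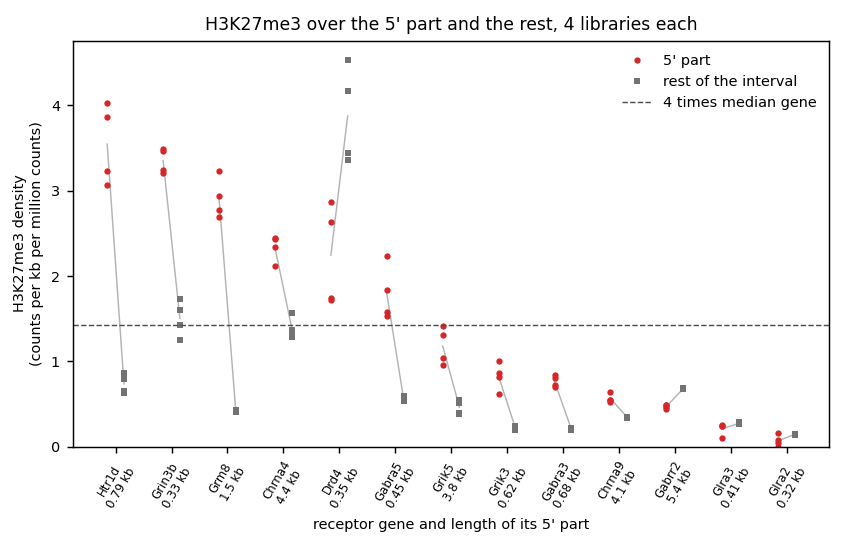
H3K27me3 density (y axis, counts per kb per 1000000 counts) over the 5′ part (red circles) and the rest of the interval (grey squares) of 13 receptor genes, with 4 libraries each and a line joining the 2 means; the length of the 5′ part is under each name. The 5′ part lies above the rest in 9 of them, most of all in Htr1d and Grm8, and below it in Drd4, Gabrr2, Glra3 and Glra2.

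Taken over all lengths, CG content of the promoter showed little relation to density among the receptor genes. A promoter within 1000 bp of the interval's start was found for 44 receptor genes and 10112 coding genes, and density had a Spearman's rho of 0.111 with its observed over expected CG ratio across the 44, against -0.343 across the coding genes. The 19 receptor genes with a CG-rich promoter (ratio of at least 0.6 and at least 50% C and G) had a median density of 0.436 with 6 marked, and the 25 others had 0.567 with 4 marked. The CG-rich ones were longer, with a median of 70062 bp, against 29983 bp for the others. Under 20 kb, 7 CG-rich receptor genes had a median of 1.89, against 0.127 for CG-rich coding genes of that length. In the same lengths, the 9 CG-poor receptor genes had 1.19, against 0.376 for CG-poor coding genes. Within each length class the median of CG-rich receptor genes lay above that of CG-poor ones. From 20 to 100 kb, 3 CG-rich genes had 0.701 and 8 CG-poor genes had 0.655. At 100 kb or more, 9 CG-rich genes had 0.359 and 8 CG-poor genes had 0.298. These differences were not tested. The Chrna7 promoter above, with 35 CG dinucleotides, heads a gene at 0.256 ± 0.0202 over its whole 113835 bp. No 5′ part of Chrna7 was set apart, so the mark at this promoter was not measured.

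Several receptor genes lie side by side, and their densities are given here by cluster. The nicotinic genes Chrna5, Chrna3 and Chrnb4 on chromosome 9, for the receptor of autonomic ganglia, stood at 2.09, 3.33 and 2.43 times the median gene. Chrnd and Chrng on chromosome 1 had 2.14 and 1.95 times, and Chrnb3 and Chrna6 on chromosome 8 had 1.71 and 1.55 times. The serotonin-gated channel genes Htr3a and Htr3b had 2.41 and 3.91 times. Of the GABA-A clusters, Gabrr2 and Gabrr1, expressed mainly in the retina, were the densest pair at 1.81 and 2.51 times. Gabrg1, Gabra2, Gabra4 and Gabrb1 on chromosome 5 lay between 0.891 and 1.32 times, and Gabrg3 and Gabra5 on chromosome 7 had 0.916 and 1.59 times. On the X chromosome, Gabre, Gabra3 and Gabrq had 0.871, 0.576 and 1.93 times.

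The design asks whether 2 h of ERK activation through cRAF-ErT2 changed the mark. No receptor gene passed the test between 2 h and 0 h, and all fitted changes were small. None of 68 was called at an adjusted p of 0.05 in edgeR's quasi-likelihood test, as was 0.0% of all 50037 intervals tested. None reached an unadjusted p of 0.05 either, against 188 of all intervals, and DESeq2 called none. These fits held no term for clone, although clones pair the libraries, so differences between the clones counted as error. The 188 intervals are far fewer than with clone as a block, given below. A small change could therefore be missed here. The log2 change of 2 h over 0 h ran from -0.11 for Gabra2 to 0.16 for Chrng (SE 0.25), with a median of 0.006 over the receptor genes and 0.015 over coding genes. The 95% interval of the change lay within 1.5-fold in either direction for 65 of 68 genes, the exceptions being Adrb3, Chrng and Chrnb2. Adrb3 had the widest, from -1.07 to 1.07 on the log2 scale. With clone as a block, that of Adrb3 ran from -0.277 to 0.252.

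For many receptor genes the direction differed between the clones. The counts that follow are not given over coding genes, so they are not read as particular to receptor genes. The log2 change was positive in both clones for 18 receptor genes, negative in both for 24 and of opposite sign for 26. Of those that moved the same way in both, the smallest unadjusted p were those of Adra2c, Grik3 and Gabrd, with log2 changes of 0.14 (SE 0.13), 0.11 (SE 0.12) and 0.09 (SE 0.11), and of Gabra3, Grik2 and Gabra2, with -0.10 (SE 0.09), -0.08 (SE 0.07) and -0.11 (SE 0.10). Gabra2 had densities of 0.357 and 0.332 in clones A and B at 2 h, against 0.393 and 0.352 at 0 h, so the libraries of both times overlap. With clone as a block, the 95% interval lay within 1.5-fold for all 68 genes, and none was called. Under that fit Grin2d, Gabra2 and Grik3 had unadjusted p of 0.0322, 0.0326 and 0.0370, each with an edgeR adjusted p of 1.0, while 2078 of the 50037 intervals had an unadjusted p under 0.05.

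**Figure D4:**
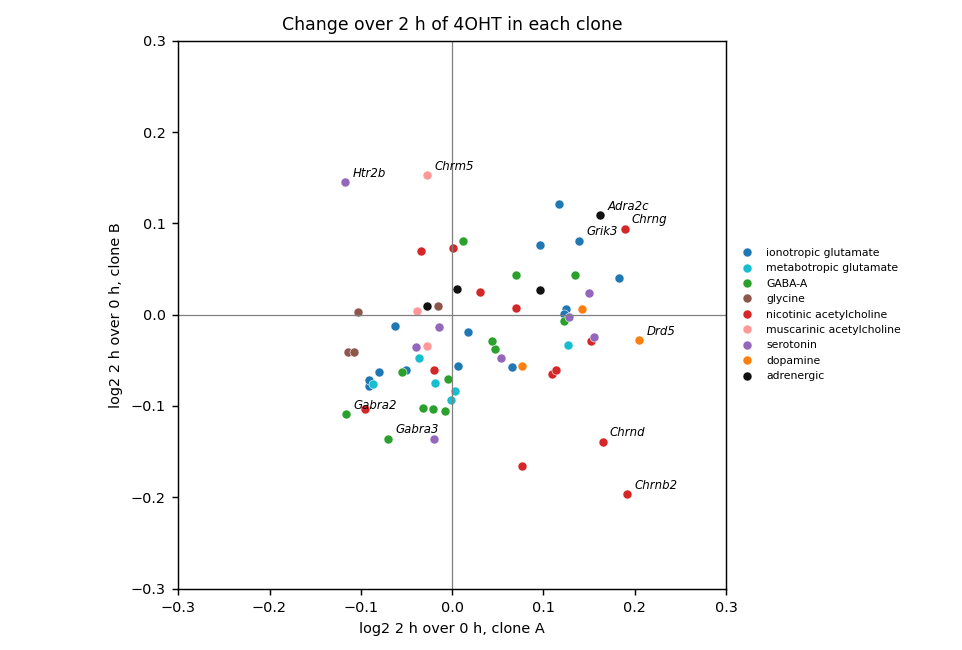
Log2 change of H3K27me3 counts at 2 h over 0 h in clone A (x axis) and clone B (y axis), after TMM scaling, for the 68 receptor genes coloured by class; each point rests on 1 library per clone and time. All points lie between -0.117 and 0.205 in clone A and between -0.197 and 0.153 in clone B, and Chrnb2, Chrnd and Htr2b lie far out in quadrants of opposite sign.

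More receptor genes passed the test between the clones than between the times. Of the 68 genes, 26 were higher and 5 lower in clone A at an edgeR adjusted p of 0.05 (n = 2 libraries per clone), against 17.3% higher and 10.3% lower of all intervals, or 16.8% and 8.67% of coding genes. The median log2 of clone A over clone B was 0.08 for the receptor genes and 0.00 for coding genes. Without the library of clone B at 0 h, 17 were higher and 1 lower in clone A. Without that of clone B at 2 h, 16 were higher, and the lower calls fell to 2 without clone A at 0 h and to 3 without clone A at 2 h. In 46 genes clone A was above clone B at both times, and in 13 it was below at both. The same counts over coding genes are not given here, so these are not read as particular to receptor genes.

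Adrb3 differed most: its interval held 332 and 261 counts in clone A at 2 h and 0 h, against 145 and 135 in clone B. Its log2 difference was 1.13 (SE 0.13, edgeR adjusted p = 6.18e-16), and clone A lay above clone B at both times. Its neighbour Got1l1, 2142 bp away, was higher in clone A as well, by 0.72 (edgeR adjusted p = 2.39e-16). Rab11fip1, further off on that side, differed by 0.22 (edgeR adjusted p = 0.0164). On the other side Eif4ebp1 differed by 0.27 and Tex24 by -0.01, with edgeR adjusted p of 0.226 and 0.962. Grin1 had the smallest edgeR adjusted p, 8.18e-17, at a log2 difference of 0.48 (SE 0.05). The muscle and brain nicotinic genes Chrng and Chrnb2 were higher in clone A by 0.56 (SE 0.11) and 0.55 (SE 0.07). Chrna10, Grik5 and Chrm4 followed at 0.49, 0.46 and 0.45, and Drd4, Grin2d, Htr1d, Grid2ip and Grm2 lay between 0.30 and 0.39.

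Among the 5 genes lower in clone A were Chrna6, at -0.25 (SE 0.09), Grm3, at -0.22 (SE 0.05), Chrna7, at -0.18 (SE 0.06), and Gabrg3, at -0.14 (SE 0.05). Of these, Grm3, a gene for an inhibitory glutamate receptor, had densities of 0.4004 and 0.4313 in clone A at 2 h and 0 h, against 0.4833 and 0.4998 in clone B. The call of Gabrg3 was lost without 3 of the 4 libraries, taken out 1 at a time, with edgeR adjusted p of 0.187 without clone A at 2 h, 0.0646 without clone A at 0 h and 0.287 without clone B at 0 h. That of Chrna7 was lost without clone B at 0 h, at an edgeR adjusted p of 0.170. Chrna6 lost its call without clone A at 0 h (0.201) and without clone B at 0 h (0.153), as edgeR adjusted p, and had an adjusted p of 0.12 in DESeq2. Grm3 kept its call in each of these fits.

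The clone difference followed how densely a gene was marked. Of the 13 marked receptor genes, 12 were higher in clone A and 1, Drd5, was not called, at a log2 difference of 0.06 (SE 0.08). Of marked coding genes, 63.7% were higher in clone A. These counts are partly fixed by the limit, since clone A enters the mean: Grin1, Chrm4 and Grid2ip pass it only with clone A, and all 6 of their clone B values lie below it. With the limit read in clone B alone, at 1.429, 10 receptor genes were marked, against 4.96% of coding genes. Of the 10, 9 were higher in clone A, against 59.5% of the coding genes so marked. Between 2 and 4 times the median gene, 7 of 13 receptor genes were higher in clone A, against 36.3% of coding genes. Spearman's rho of density with the log2 difference was 0.505 across the 68 receptor genes and 0.270 across coding genes, or 0.432 and 0.187 with the density of clone B alone. All these values come from the same 4 libraries. How far the overall trend with density accounts for single genes was not tested. Clone and library cannot be told apart for any 1 time, since each clone and time has 1 library.

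**Figure D5:**
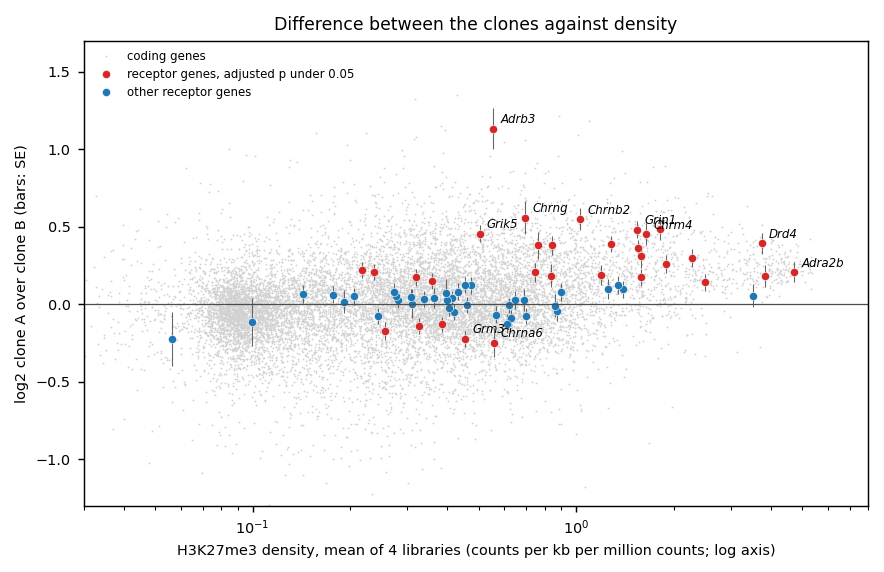
Log2 difference of clone A over clone B (y axis, bars are the SE) against mean H3K27me3 density over 4 libraries (x axis, counts per kb per 1000000 counts, log scale) for receptor genes, red where edgeR's adjusted p was under 0.05, and for coding genes within the plotted range in grey. Of the 10 receptor genes marked in clone B alone, all at the right, 9 are red and higher in clone A, and Adrb3 stands alone at 1.13.

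Other genes of neurotransmission were read in the same way, from a list of 96 genes for transmitter synthesis, transport and breakdown, receptor scaffolds, further receptors and sodium channels. Of these, 62 had an interval, with a median density of 0.617 ± 0.0261 (SD, n = 4), against 0.578 ± 0.0135 for the receptor genes, and 7 were marked (11.3%, against 5.44% of coding genes). The densest were Slc32a1, the vesicular carrier of GABA and glycine, at 10.5 times the median gene, and Hrh3, the inhibitory histamine receptor, at 9.94 times. Slc17a7, which loads glutamate into vesicles, had 6.92 times, and Ache, which breaks down acetylcholine, 6.43 times. The lowest was Maoa, which breaks down monoamines, at 0.140 times. None of the 62 was called over time, and 18 (29.0%) were higher and 10 (16.1%) lower in clone A, against 16.8% and 8.67% of coding genes.

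Marker genes checked the labelled cell type. The 11 measured pluripotency genes had a median of 0.105 ± 0.00571 with none marked, and the 7 neural progenitor genes had 3.21 ± 0.322 with 6 marked. The 8 neuron genes, at 0.320 ± 0.00633, had none marked, and the 6 fibroblast genes, at 0.617 ± 0.103, had 1. Utf1 was the densest pluripotency gene at 3.06 times the median gene, and Lin28a the sparsest at 0.236 times. Column totals ran from 70378127 to 92518605 counts.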

How the data were processed

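For each of the 4 H3K27me3 libraries the authors deposited counts of reads, in whole numbers, over transcript intervals, per the file headers. Bowtie2, bedtools and mm10 are named in the submitters' processing notes. For versions, read filters and counting options, the entry is: not given in the sources used here. All 50398 intervals come from 1 table and many overlap and share reads, so a column total counts some reads several times and does not measure depth. A further 16 per-library or mean columns were not used, and the 4 input libraries were not analysed here, so the input background that had been planned was left out. Intervals were matched to RefSeq genes of GRCm38.p6 by overlap over union, and overlapping genes and isoforms may share reads, whichever strand they lie on.

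Counts of all intervals were tested by quasi-likelihood in edgeR 4.0.16 with TMM factors. The filter filterByExpr left 50037 intervals, over which p-values were adjusted by Benjamini-Hochberg. DESeq2 1.42.0 was an alternative, as were other factors, filters, thresholds and denominators, 1 interval per gene, a block for clone or time, and omission of single libraries. R 4.3.3, limma 3.58.1, Python 3.11.15 and pandas 2.3.3 were used. The tests and the 5′ calculation were run on simulated data. The counts simulated for the time test held no difference between clones. They therefore cannot show how the time test without a block behaves where clones differ. Per the labels both clones have a library at each time, so clones pair the libraries. Deviations from the time means correlated within a clone at r = 0.515 over 50037 intervals, which are not replicates.

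The genes, lists and tests were chosen with earlier results of these data known. Named were the 12 densest and 6 sparsest genes, up to 12 called ones, for each direction the 3 of smallest p that changed alike in both pairs, those around the limit of 4 times, the extremes of each class, and gene clusters. Grin2d and the genes with a 5′ part were also named after their values were seen. The single values of 2 receptor genes are not reported here. Counts are of reads without molecular identifiers.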

Additional observations from a re-analysis of the deposited data

Results flagged for a closer look

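The change over 2 h ran in opposite directions in the clones for several medians and genes, and none of these differences between clones was tested, as there is only 1 library for every clone and time. Over all 68 receptor genes the median log2 change stood at 0.005 for clone A, against -0.031 for clone B, a difference of 0.036. With column totals in place of TMM factors both medians were negative, at -0.015 and -0.004.

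The gap was 0.170 for dopamine receptor genes, at 0.142 (clone A) and -0.028 (clone B), and 0.138 for nicotinic genes, at 0.077 (clone A) and -0.061 (clone B). It was 0.057 for ionotropic glutamate genes and 0.039 for serotonin receptor genes. For muscarinic genes it was -0.032, with clone A at -0.028 and clone B at 0.004. By kind, it was 0.022 for G protein-coupled receptor genes and 0.054 for ion channel genes.

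The single genes were Chrnb2, at 0.19 for clone A and -0.20 for clone B (a difference of 0.389), Chrnd, at 0.17 and -0.14 in clones A and B (0.304), and Htr2b, at -0.12 and 0.15 (-0.262). Chrnb2 had densities of 1.29 in clone A and 0.795 in clone B at 2 h, against 1.14 and 0.894 at 0 h.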

How the results depend on the processing

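No alternative called a receptor gene over time, replicate block included (0 calls, and 0 to 0 when each library was left out). For clone A against clone B, the 31 calls became 18 to 27 with each library left out, where a lone library is assumed to vary like the others. The lowest total, 18, came without clone B at 0 h. Higher calls, 26 in all, became 16 to 25 (16 without clone B at 2 h, 17 without clone B at 0 h). Lower calls, 5 in all, became 1 to 6 (1 without clone B at 0 h, 2 without clone A at 0 h, 3 without clone A at 2 h), and 3 with DESeq2 size factors, where Gabrg3 had an edgeR adjusted p of 0.0548. DESeq2 called 18 higher and 4 lower, and time as a block 25 and 5. Calls between the clones over all intervals are not given for these alternatives. Losses of calls are therefore not read as particular to receptor genes. The fits without a library rest on fewer samples, and for the size factors the cause was not tested. The number of marked genes stayed at 13 to 14 and the median density at 0.572 to 0.583 without any 1 library. With the limit at 2 or 8 times the median gene, 26 or 4 genes were marked. Taking the total over 1 interval per gene as the denominator, which is smaller by construction, gave a median density of 1.91. The median change in clone B was -0.004 with column totals. The log2 change of Grik3 over time was -0.02 without clone A at 2 h. Without Grid2ip, 12 genes were marked and 30 called between clones. With 2 libraries per time, the 95% interval of the change reached 0.32 on the log2 scale for the median receptor gene. The limit read in clone B alone, the fits on 1 interval per gene with a block, and the omission of Grid2ip were chosen after seeing the data.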

Other observations

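Intervals of other genes, or of none, lie across the start of 12 receptor genes. For 6 of these genes all such intervals were denser than the receptor gene, and for the other 6 none was. For Glra4 the difference was slight, at 0.05836 for the spanning interval and 0.05645 for the gene. Gabra4 and Gabrb1 were each set against the other's whole interval, of 491519 bp and 88575 bp, which does not measure the start alone. No such count over coding genes is given here. The following were chosen after their values were seen. Gm14285, on the opposite strand (chr2:131561614-131564453), spans the start of Adra1d and had a density of 4.07, against 2.49 over Adra1d. A same-strand interval without a gene name (chr1:121524983-121529312) spans the start of Htr5b and had 2.97, or 8.31 times the median gene, against 1.35 over Htr5b. In the other direction, an opposite-strand interval without a gene name (chr7:102113387-102122062) spans the start of Chrna10 and had 0.787, against 1.81 over Chrna10. Lrrc26, which overlaps the far end of Grin1 by 17 bp, had 13.4 times the median gene, against 4.31 times for Grin1.

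Neighbours of receptor genes that were higher in clone A differed in whether they were higher too. Next to Chrm4, the kinase gene Dgkz differed by 0.36 and the nearby Creb3l1 by 0.51 on the log2 scale of clone A over clone B, with edgeR adjusted p of 7.69e-09 and 7.87e-17. Mdk, which overlaps the end of Chrm4 by 25 bp on the side of Dgkz, differed by only 0.05. On the other side of Chrm4, Ambra1 differed by 0.09 and Harbi1 by 0.08, with edgeR adjusted p of 0.318 and 0.802. Beside Chrnb2, Ube2q1 differed by 0.01, with an edgeR adjusted p of 0.986, and She, further off, by 0.49, with 1.19e-10. The neighbours also differed in density. Dgkz, Creb3l1 and She stood at 1.92, 2.04 and 1.31 times the median gene. Mdk, Ambra1, Harbi1 and Ube2q1 stood at 0.380, 0.325, 0.301 and 0.233 times. How far the trend with density accounts for these differences was not tested. These neighbours were picked after their values were seen.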
